A study of Mus musculus with 2 samples.

Results

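Neutrophils store their antimicrobial proteins in granules that are built one after another while the cell matures in bone marrow. Primary (azurophil) granules are filled first, at the promyelocyte stage, secondary (specific) granules next, and tertiary (gelatinase) granules last, and a protein is stored in the granule that forms while its gene is transcribed. Circulating neutrophils have largely stopped transcribing the primary and secondary genes, and the earliest genes are shared with the progenitors of monocytes. The 10 genes described here were chosen by name as members of these 3 classes, out of 56941 features in the files, and all 10 were detected. Elane (neutrophil elastase), Mpo (myeloperoxidase, which makes hypochlorous acid), Prtn3 (proteinase 3) and Ctsg (cathepsin G) stand for the primary granules. Ngp (neutrophilic granule protein), Camp (the precursor of the antimicrobial peptide cathelicidin), Ltf (lactoferrin, which binds iron), Lcn2 (lipocalin 2, which binds bacterial siderophores) and Mmp8 (neutrophil collagenase) stand for the secondary granules, and Mmp9 (gelatinase B) for the tertiary granules.

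The transcripts were counted in CD45+ cells sorted from liver metastases of C57BL/6 mice aged 6 to 8 weeks, taken 2 weeks after MC38-LM3b cells had been injected into the spleen. MC38-LM3b is a derivative of the mouse colon cancer line MC38 that readily forms liver metastases, and the injected cells carried a scrambled hairpin (Ctrl, shScramble) or 1 hairpin against SLAMF3 (KD, shSLAMF3). Each group was a single library from the pooled lesions of 3 mice, so differences between the mice of a group could not be seen, no test was possible, and every interval given is a 95% interval that covers counting error only. SLAMF3 is encoded by Ly9, and the hairpin was in the tumor cells rather than in the sorted host cells, so the 1349 Ly9 UMIs of Ctrl and the 1157 of KD do not check the knockdown.

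The filter kept 9814 Ctrl and 10185 KD cells, whose median depths were 5411.5 and 4989 UMIs (unique molecular identifiers, each counting 1 captured RNA molecule), and 27 cell barcodes occurred in both libraries. Granulocytes were 810 Ctrl cells (8.25% of the library) and 2326 KD cells (22.8%), with medians of 2170 and 2837.5 UMIs per cell. The 8 granulocyte markers used to name them, among them S100a8 and Cxcr2 and none of the 10 members, summed to 65717 CPM (UMIs per 1000000 UMIs of the class) in Ctrl granulocytes and 109312 CPM in KD granulocytes, against 488 and 1673 CPM in monocytes. The granulocyte class therefore carried its markers in both libraries, but at a higher summed level in KD.

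Over all filtered cells every member had a higher level in KD. Elane counted 35 UMIs in Ctrl and 525 in KD, Mpo 26 and 201, Prtn3 672 and 2150, and Ctsg 31 and 353. Ngp counted 3305 UMIs in Ctrl and 19529 in KD, Camp 3260 and 15496, Ltf 1148 and 3956, Lcn2 3967 and 39967, and Mmp8 725 and 6319. Mmp9 counted 1321 UMIs in Ctrl and 5623 in KD. These totals depend on how many cells of each class a library holds as well as on the level in each cell, so the values below are given within cell classes.

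The classes of granule genes lay in different cells. Of the Ngp UMIs, 98.0% in Ctrl and 86.8% in KD lay in granulocytes, and of the Mmp9 UMIs 90.3% and 92.5%. Of the Prtn3 UMIs only 3.57% in Ctrl and 5.30% in KD lay in granulocytes, and of the Elane UMIs 0% and 0.762%. Granulocytes likewise held 3.85% and 3.48% of the Mpo UMIs, and 0% and 3.12% of the Ctsg UMIs. Cells in clusters named macrophages held the largest part of each primary gene in both libraries, from 53.8% of Mpo in Ctrl to 82.9% of Elane in KD. The rest was not all in monocytes: of the 26 Mpo UMIs of Ctrl, monocytes held 0%, tumor cells or fibroblasts 19.2% and T cells 15.4%, and unnamed clusters held 20.4% of the Ctsg UMIs of KD.

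**Figure D1:**
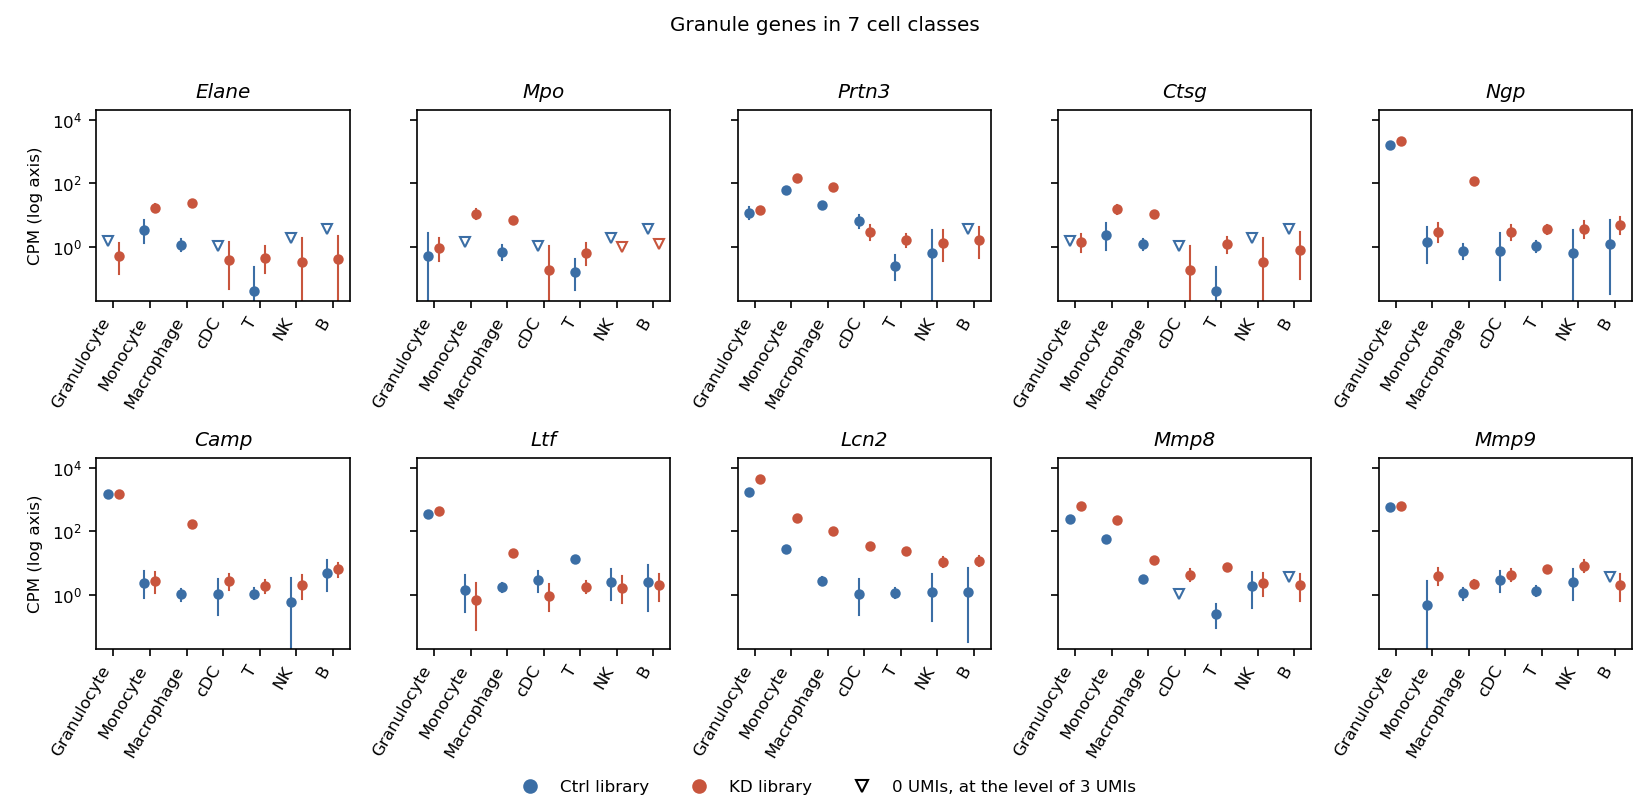
Level of each of the 10 granule genes in 7 cell classes, as CPM on a log axis, with Ctrl in blue and KD in red and bars for the 95% counting interval; open triangles mark classes with 0 UMIs, drawn at the level that 3 UMIs would give. Secondary and tertiary genes peak in granulocytes, while Prtn3 is highest in monocytes, at 62.9 and 151 CPM in Ctrl and KD.

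Of these genes, the secondary members Ngp, Camp and Ltf and the primary members Prtn3 and Elane show the contrast between the classes, so the sequences just upstream of 4 of them are given. Ngp, Camp and Ltf lie on chromosome 9 with 8 coding genes between Camp and Ngp and 20 between Ngp and Ltf, and Prtn3 and Elane are neighbours on chromosome 10 with no coding gene between them. Each sequence is the 250 bases before the RefSeq transcription start in build GRCm38.p6, read 5′ to 3′ on the strand of the gene. The capitals mark matches on either strand to TTGCNNAA, a form of the motif of C/EBP factors, and to AGGAAG, a core of the motif of ETS factors such as PU.1; C/EBP-epsilon and PU.1 are known regulators of granule genes.
Ngp (chr9:110419558-110419807, plus strand): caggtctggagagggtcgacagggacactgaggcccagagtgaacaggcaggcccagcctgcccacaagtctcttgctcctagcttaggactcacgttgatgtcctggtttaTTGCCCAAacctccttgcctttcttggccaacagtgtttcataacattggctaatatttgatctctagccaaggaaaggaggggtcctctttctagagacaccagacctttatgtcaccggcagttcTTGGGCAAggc
Ltf (chr9:111019042-111019291, plus strand): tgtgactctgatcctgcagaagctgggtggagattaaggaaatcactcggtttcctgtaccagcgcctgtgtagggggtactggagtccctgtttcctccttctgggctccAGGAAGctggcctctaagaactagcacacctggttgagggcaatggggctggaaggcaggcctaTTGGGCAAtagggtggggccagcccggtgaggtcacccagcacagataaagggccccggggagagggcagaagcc
Camp (chr9:109849457-109849706, minus strand): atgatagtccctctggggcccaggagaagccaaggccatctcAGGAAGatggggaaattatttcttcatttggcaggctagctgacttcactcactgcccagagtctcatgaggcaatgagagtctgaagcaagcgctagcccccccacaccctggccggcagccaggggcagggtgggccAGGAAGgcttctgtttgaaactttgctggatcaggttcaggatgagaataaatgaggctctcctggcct
Prtn3 (chr10:79879417-79879666, plus strand): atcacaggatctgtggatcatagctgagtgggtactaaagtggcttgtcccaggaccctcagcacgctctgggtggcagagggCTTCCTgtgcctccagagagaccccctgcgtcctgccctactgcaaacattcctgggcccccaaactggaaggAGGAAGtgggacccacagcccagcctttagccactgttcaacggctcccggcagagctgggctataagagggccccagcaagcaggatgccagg

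Promoters of this length were given for 9 of the 10 members. TTGCNNAA occurred in 4 of the 9, namely Ngp (starting 138 and 11 bases before the start site), Ltf (75 bases), Lcn2 (216 bases) and Mmp8 (19 bases), all of them secondary genes, and in 9.55% of 27025 mouse promoters. AGGAAG occurred in 8 of the 9, all but Ngp, and in 29.2% of the promoters. A match says only that the letters are present in the window, and no binding was measured.

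To place the granule genes along neutrophil maturity, the granulocytes were split into 8 sub-clusters, which were ordered by the summed UMIs of 6 genes of mature neutrophils (Cxcr2, Csf3r, Il1r2, Mxd1, Trem1 and Clec4d) relative to 8 genes of early or cycling cells (Ms4a3, Fcnb, Cebpe, Gfi1, Kit, Mki67, Top2a and Chil3). None of these 14 genes is a member, and the members were left out of the genes used for clustering. The early sum rested on Chil3, with 3749 of its 4425 UMIs in granulocytes (84.7%), and Chil3 and Fcnb are themselves listed below as granule genes, so the order was not independent of granule transcripts. The lowest ratio, 1.57 late UMIs per early UMI, was 9.10-fold below that of all granulocytes, and this sub-cluster of 206 cells, led by Camp, Ngp and Ltf, is called immature below. Without Chil3 and Fcnb, an alternative chosen after the values were seen, it still had the lowest ratio, 20.2 late UMIs per early UMI, 5.25-fold below that of all granulocytes. Most of its 212 remaining early UMIs were of Cebpe (17 in Ctrl and 140 in KD), the factor needed for secondary granules. This order was therefore not independent of granule formation either. The highest ratios were 148 in a sub-cluster led by the interferon-induced genes Cxcl10 and Ifit2 and 180 in one led by Lypd6b and Cxcl3. Between them lay a sub-cluster led by Arf2 and Saa3 (33.4) and one led by Stfa2 and Retnlg (34.9). The other 3 sub-clusters held 68 Ctrl and 270 KD cells, and each had at least 3 raised markers of another lineage. They were led by Ms4a6c (with Cd74), Ebf1 (with Cd79a) and Gm37240 (with a low median of 676 UMIs per cell), and are shown but not ranked.

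Ngp, Camp and Ltf were transcripts of the immature sub-cluster. Pooled over both libraries, Ngp stood at 12862 CPM in the immature cells (99.5% of cells with a UMI) and at 9.20 CPM in the Cxcl10 sub-cluster, a 1398-fold range. Camp fell from 10593 to 4.60 CPM, a 2302-fold range, and Ltf from 2619 to 4.47 CPM, a 585-fold range. These 206 cells, 6.57% of all granulocytes, held 93.3% of the granulocytes' Ngp UMIs in Ctrl and 83.3% in KD, 94.8% and 91.3% of Camp, and 88.3% and 82.1% of Ltf.

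Of the later sub-clusters, the one led by Stfa2 held the most Ngp. In this sub-cluster, 455 of whose 460 cells were from KD, Ngp counted 717 UMIs (397 CPM) and was found in 42.4% of cells. Camp counted 51 UMIs there (28.2 CPM, 7.83% of cells) and Ltf 18 UMIs (9.96 CPM, 2.39% of cells). In the Arf2 sub-cluster, at nearly the same late to early ratio, Ngp was down to 52 UMIs (23.0 CPM) over 924 cells. Ngp was therefore present in 1 of these 2 sub-clusters at a level 17.2-fold above the other; without Chil3 and Fcnb their ratios were 112 (Stfa2) and 180 (Arf2), which turned their order. Ltf in turn exceeded Ngp in the Cxcl10 sub-cluster, with 45 UMIs (34.5 CPM, 5.97% of cells) against 12 Ngp UMIs (9.20 CPM, 1.54% of cells). Of these 45 Ltf UMIs, 33 were from Ctrl. In the Lypd6b sub-cluster, the latest in the order, Ngp (58 UMIs, 32.4 CPM) again exceeded Ltf (8 UMIs, 4.47 CPM). Over all Ctrl granulocytes, 32 of the 61 cells with Ltf had neither Ngp nor Camp.

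Lcn2 and Mmp8, although also secondary granule proteins, were not restricted to the immature cells. Lcn2 was highest there (14134 CPM), but stood at 5068 CPM in the Stfa2 sub-cluster and 2301 CPM in the Lypd6b sub-cluster, the latest in the order, and its lowest level was 571 CPM, a 24.8-fold range. Mmp8 ran from 1599 CPM in immature cells over 911 CPM in the Stfa2 and 389 CPM in the Lypd6b sub-cluster to 66.0 CPM in the Cxcl10 sub-cluster, a 24.2-fold range. Mmp9 had the flattest course of the secondary and tertiary members, from 1356 CPM in immature cells to 421 CPM in the Arf2 sub-cluster, a 3.22-fold range, with 618 CPM in the Lypd6b sub-cluster. The primary gene Prtn3 was low throughout. Its highest level was 22.5 CPM (30 UMIs, 15.2 to 32.1) in immature cells and its lowest 5.59 CPM (10 UMIs, 2.68 to 10.3) in the Lypd6b sub-cluster. The counting intervals of these 2 extremes did not overlap, but the Arf2 sub-cluster stood near the highest, at 19.9 CPM (45 UMIs, 14.5 to 26.7). Elane counted 4 UMIs, Mpo 8 and Ctsg 11 over all 3136 granulocytes, too few to place.

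Ordered by the range between the highest and lowest ranked sub-cluster, the genes were thus Camp, Ngp and Ltf, then Lcn2 and Mmp8, then Mmp9. The highest level was in the immature cells, but the lowest was not always in the latest sub-cluster, so these ranges are not steady falls. Lcn2 and Mmp8 had nearly the same range. When each cell was instead ranked by its own late to early index and the cells were cut into 5 equal groups, Camp dropped from 5226 CPM in the least mature group to 82.6 in the second and 7.37 in the last. Ngp dropped from 6486 over 521 to 15.4 CPM, Lcn2 from 7887 over 2945 to 1357 CPM, and Mmp9 from 832 over 605 to 490 CPM. Prtn3 stood at 21.4 CPM in the least mature group, 9.49 in the second and 13.4 in the last. All 7 members that were counted often enough (Prtn3 and the 6 secondary and tertiary genes) were highest in the least mature group by this ranking as by the sub-clusters. They were so too, by both rankings, without Chil3 and Fcnb, where the group of cells ranked first held 4988 CPM of Camp, 5895 CPM of Ngp and 775 CPM of Mmp9, and the last group 7.43, 18.9 and 495 CPM. Only 370 cells had a UMI of the remaining early genes, so the 3 later groups were ranked by the late genes alone. The same held with Chil3 and Fcnb kept, where cells with an early UMI were 609 in the first group, 189 in the second and 0 in each later one.

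**Figure D2:**
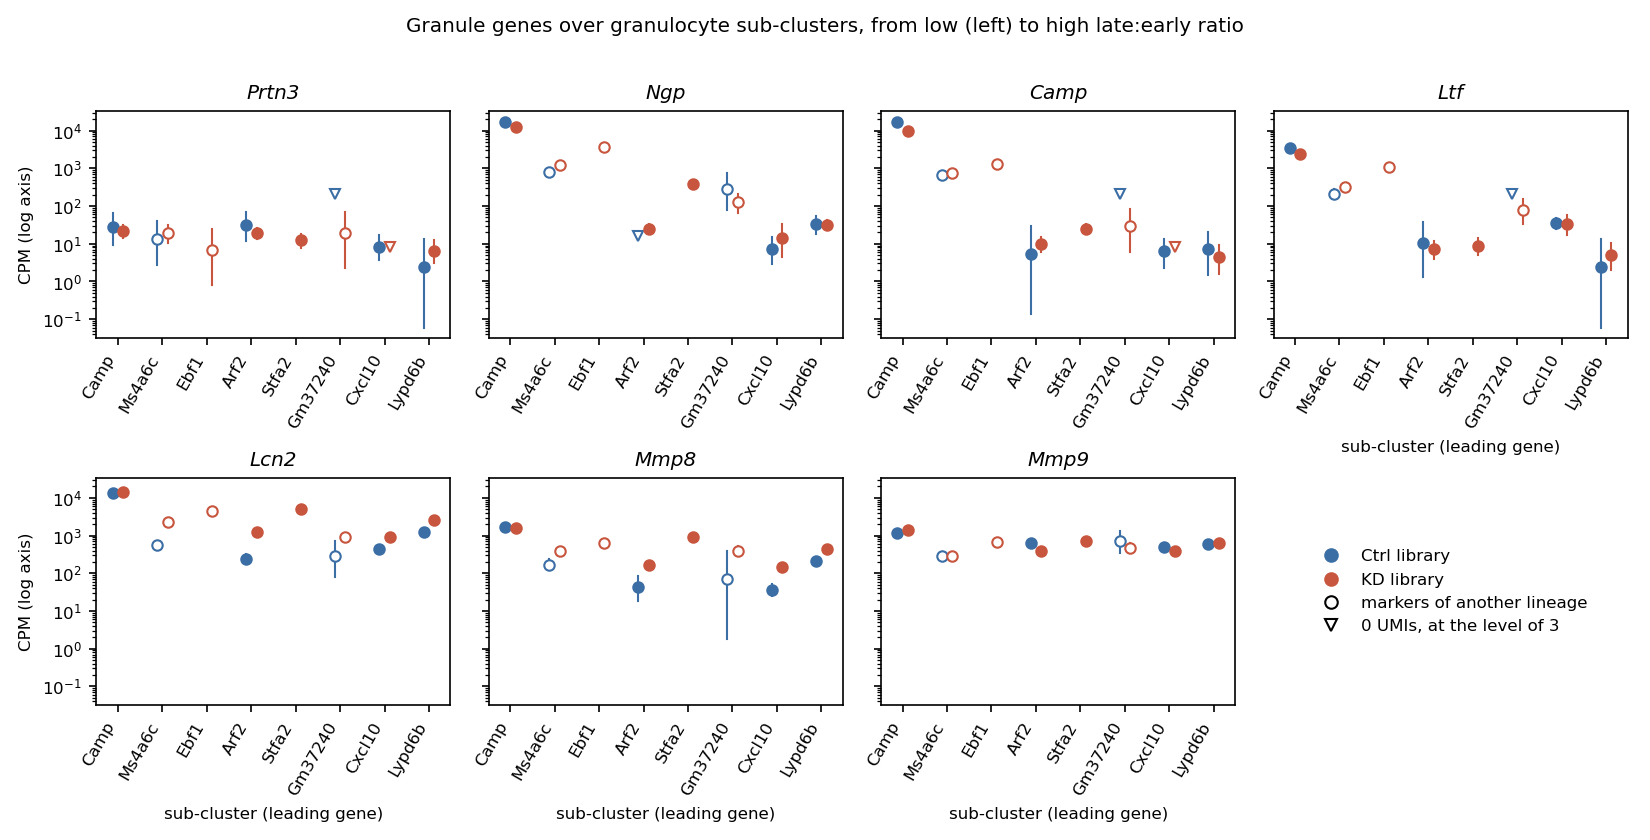
Level of 7 granule genes in 8 granulocyte sub-clusters ordered from the lowest (left) to the highest late to early ratio, as CPM on a log axis, Ctrl in blue and KD in red, with 95% counting intervals. Libraries with under 20 cells in a sub-cluster are not drawn, and open circles mark sub-clusters with markers of other lineages. Ngp, Camp and Ltf drop over several steps of the log axis after the first sub-cluster, whereas Mmp9 stays between 292 and 1384 CPM.

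The share of immature cells differed between the libraries. Of the Ctrl granulocytes, 30 of 810 (3.70%, interval 2.51 to 5.25) were immature, and of the KD granulocytes 176 of 2326 (7.57%, 6.52 to 8.72), a difference of 3.86 percentage points (2.00 to 5.52). With a stricter cell filter the shares were 4.25% and 14.7%, and with classes made without clusters 2.25% and 3.75%. The immature cells were the deepest of the ranked sub-clusters, with a median of 5713 UMIs in Ctrl and 6039.5 in KD, and held 8.84% of the UMIs of Ctrl granulocytes and 14.6% of those of KD granulocytes. The later cells differed more in makeup: the Cxcl10 sub-cluster was 450 Ctrl and 136 KD cells, the Arf2 sub-cluster 97 and 827, and the Lypd6b sub-cluster 160 and 462.

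Within granulocytes as a whole, the classes differed between Ctrl and KD to different degrees. The primary genes together counted 25 UMIs in Ctrl (12.3 CPM) and 136 in KD (17.2 CPM), a log2 ratio of KD over Ctrl of 0.48 whose interval of -0.14 to 1.16 included 0. Nearly all of these were Prtn3 UMIs, 24 in Ctrl and 114 in KD. The ratio changed with the processing, in settings that also changed which cells were in the class. It was 1.23 (0.58 to 1.95) without likely doublets, where the KD class held 191 primary UMIs although cells had only been removed before clustering. It was 3.19 (2.71 to 3.71) when each cell was classed by its own markers without clusters. The KD class then held 1303 primary UMIs, with 123 of the library's 201 Mpo UMIs. A single KD cell, outside the granulocytes above, held 97 of those 201, so the 123 included it. Ngp, Camp and Ltf together counted 7149 UMIs in Ctrl (3520 CPM) and 32586 in KD (4111 CPM), a log2 ratio of 0.22 (0.19 to 0.26). It was 0.39 without likely doublets and 0.45 with classes made without clusters. Mmp9 stood at 587 CPM in Ctrl (1193 UMIs) and 656 CPM in KD (5201 UMIs), a log2 ratio of 0.16 (0.07 to 0.25).

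Taken singly, Lcn2 and Mmp8 stood apart from the other members. Lcn2 counted 3601 UMIs in Ctrl granulocytes (1773 CPM) and 35327 in KD (4457 CPM), a log2 ratio of 1.33 (1.28 to 1.38). Mmp8 counted 496 UMIs (244 CPM) and 4985 UMIs (629 CPM), a log2 ratio of 1.36 (1.23 to 1.50). Ngp stood at 1595 CPM in Ctrl and 2139 CPM in KD (log2 0.42, 0.37 to 0.48), Ltf at 357 and 438 CPM (0.30, 0.18 to 0.41), and Camp at 1568 and 1534 CPM (-0.03, -0.09 to 0.02). Without likely doublets Camp had a log2 ratio of 0.26 and with classes made without clusters 0.29, so its direction depended on these choices. The KD class then held 14075 and 15387 Camp UMIs, against 12158 before, so it had taken in other cells. Of the 7 members with at least 50 UMIs, 2 were at least 2-fold higher in KD and 0 at least 2-fold lower, where 6.19% of 7737 genes were at least 2-fold higher and 6.41% at least 2-fold lower. Prtn3, at a log2 ratio of 0.28 (-0.36 to 0.98), was the only measured primary member, and Elane (0 UMIs in Ctrl and 4 in KD), Mpo (1 and 7) and Ctsg (0 and 11) were below that count, so a difference in these was not detectable at this depth.

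The share of granulocytes with a UMI was compared at equal depth. With every cell thinned to 1000 UMIs, which left out 46 shallower Ctrl and 130 shallower KD granulocytes, Lcn2 was found in 25.5% of Ctrl and 65.4% of KD granulocytes (32.3% and 75.5% without thinning). Mmp8 was found in 6.41% and 28.3%, and Mmp9 in 37.4% and 39.6%. Ngp was found in 4.19% and 13.8%, a wider gap than that of its level, whereas Camp (4.58% and 6.47%) and Ltf (4.58% and 5.28%) were closer. In T cells, a class that should lack these genes, Lcn2 stood at 1.18 CPM in Ctrl and 23.6 in KD, and Mmp8 at 0.244 and 7.28 CPM. The levels in T cells were 0.0664% in Ctrl and 0.531% in KD of those in granulocytes for Lcn2, and 0.0997% and 1.16% for Mmp8. The T cell UMIs were not spread evenly, since 192 of the 260 Lcn2 UMIs of KD lay in a cycling sub-cluster of 428 cells and 20 in a sub-cluster of 580 cells led by Ccl5, Nkg7 and Cd8a.

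Within the immature cells, Ngp, Camp and Ltf stood at lower levels in KD. Among the immature cells, Ngp had a median of 79.5 UMIs per cell in Ctrl (5 to 288 over 30 cells) and 48.5 in KD (0 to 453 over 176 cells), and its level was 16832 CPM in Ctrl and 12244 CPM in KD, a log2 ratio of -0.46 (-0.52 to -0.40). Camp had medians of 30 UMIs (0 to 684) and 7.5 UMIs (0 to 1547), was found in 93.3% of Ctrl and 79.0% of KD immature cells, and had a log2 ratio of -0.81 (-0.86 to -0.75). Ltf had medians of 16 (0 to 88) and 4 UMIs (0 to 110) and a log2 ratio of -0.53 (-0.65 to -0.40). The cells of both libraries overlapped over most of their range, the intervals take no account of the spread among cells, and without the immature cell richest in these 3 genes in each library, a choice made after their values were seen, the log2 ratios were -0.41, -0.67 and -0.44.

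Lcn2, Mmp8 and Mmp9 were closer between the libraries in immature cells. Lcn2 had a median of 75.5 UMIs per cell in Ctrl (12 to 183) and 78.5 in KD (3 to 501), with a log2 ratio of 0.12 (0.06 to 0.18). Mmp8 had a median of 9 UMIs in both and a log2 ratio of -0.06 (-0.24 to 0.12). Mmp9 had medians of 6 and 8 UMIs and a log2 ratio of 0.23 (0.02 to 0.44).

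Without the immature sub-cluster, the levels of 5 secondary genes were higher in KD. Lcn2 stood at 671 CPM in Ctrl and 2782 CPM in KD (log2 2.05, 1.97 to 2.13), Mmp8 at 107 and 465 CPM (2.12, 1.91 to 2.34) and Ngp at 118 and 418 CPM (1.83, 1.63 to 2.03). Ltf (45.9 and 91.7 CPM, log2 1.00, 0.67 to 1.34) and Camp (89.1 and 156 CPM, 0.81, 0.57 to 1.05) came next, and Mmp9 stood at 530 and 532 CPM (0.01, -0.10 to 0.11). Here 3 of the 7 members were at least 2-fold higher in KD, against 6.72% of 7436 genes. The values of Ltf, Camp and Ngp rested on the 3 sub-clusters with markers of other lineages. Without those as well, Ltf stood at 24.1 CPM in Ctrl (38 UMIs) and 8.96 CPM in KD (50 UMIs), a log2 ratio of -1.43 (-2.07 to -0.78). Camp then stood at 0.22 (-0.56 to 1.07) and Ngp at 2.83 (2.32 to 3.39). Of these 807 Ngp UMIs in KD, 706 lay in the Stfa2 sub-cluster, which had 5 Ctrl cells. In the later sub-clusters with more Ctrl cells, Ngp had log2 ratios of -0.04 (-0.94 to 0.94) in the Lypd6b and 0.93 (-1.07 to 2.80) in the Cxcl10 sub-cluster, and counted 0 UMIs in Ctrl and 52 in KD in the Arf2 sub-cluster. Lcn2, Mmp8 and Mmp9 kept their values within this smaller set, at 2.02, 2.24 and -0.02.

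**Figure D3:**
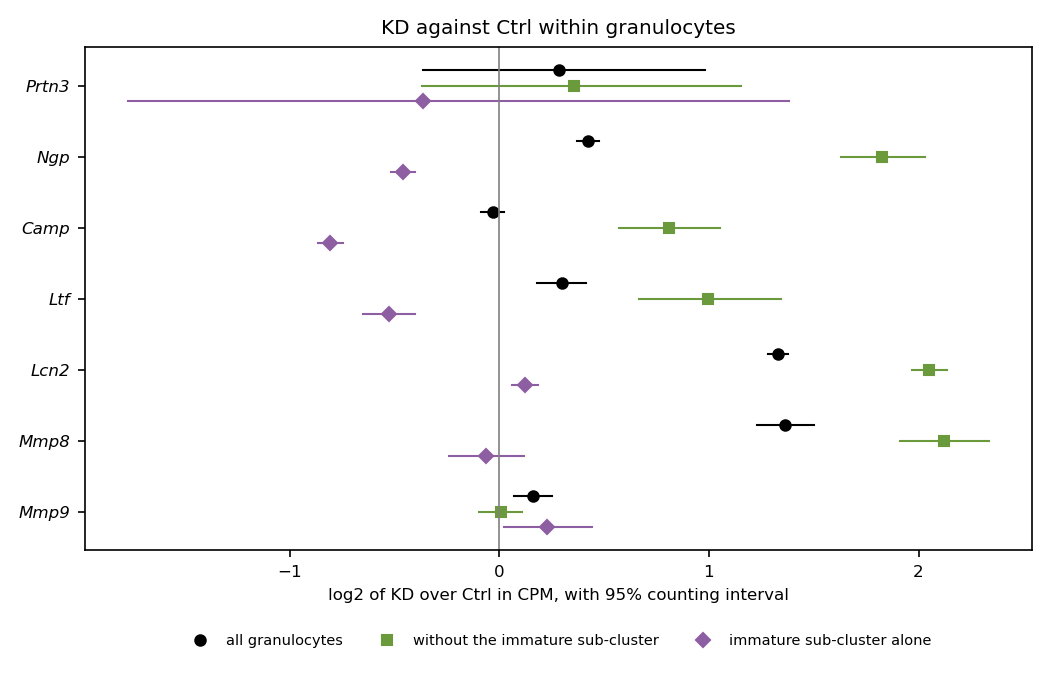
Log2 ratio of KD over Ctrl of 7 granule genes with 95% counting intervals, in all granulocytes (circles), without the immature sub-cluster (squares) and in the immature sub-cluster alone (diamonds). Ngp, Camp and Ltf lie below 0 in immature cells (-0.46, -0.81 and -0.53) and above 0 in the rest (1.83, 0.81 and 1.00), a contrast that for Camp and Ltf depends on sub-clusters with markers of other lineages; of the 807 Ngp UMIs that KD has without those, 706 lie in a sub-cluster with 5 Ctrl cells.

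For Lcn2 and Mmp8 the higher level in KD was found in each later sub-cluster that had enough Ctrl cells, and not only in their mixture. In the Arf2 sub-cluster Lcn2 stood at 238 CPM in Ctrl and 1263 CPM in KD (log2 2.41, 1.99 to 2.87), in the Cxcl10 sub-cluster at 433 and 937 CPM (1.11, 0.90 to 1.32), and in the Lypd6b sub-cluster at 1269 and 2620 CPM (1.05, 0.91 to 1.18). Mmp8 had log2 ratios of 1.97 (0.97 to 3.19), 1.96 (1.31 to 2.62) and 1.10 (0.77 to 1.44) in the same 3 sub-clusters. Mmp9 went the other way or did not differ beyond counting error, with -0.66 (-0.94 to -0.37) in the Arf2, -0.40 (-0.69 to -0.13) in the Cxcl10 and 0.01 (-0.19 to 0.21) in the Lypd6b sub-cluster. The part of free RNA in these differences was not tested beyond the levels in T cells given above.

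**Figure D4:**
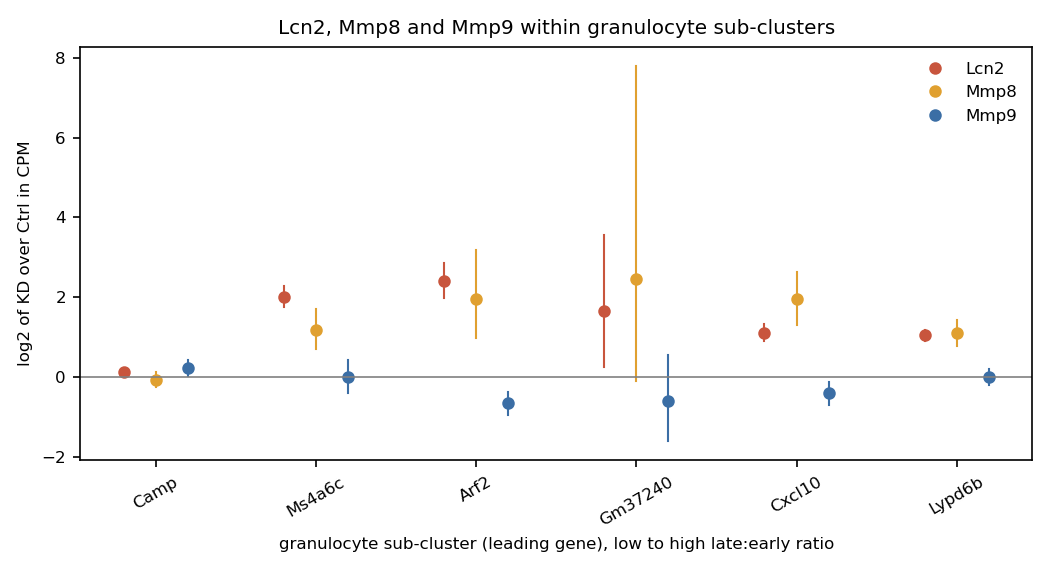
Log2 ratio of KD over Ctrl of Lcn2, Mmp8 and Mmp9 in the 6 granulocyte sub-clusters with at least 20 cells of each library, ordered by late to early ratio, with 95% counting intervals. In the Arf2, Cxcl10 and Lypd6b sub-clusters Lcn2 and Mmp8 lie above 1 and Mmp9 at or below 0.01.

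Monocytes were the class with the highest level of Prtn3. They were 385 Ctrl and 442 KD cells of the macrophage lineage, with monocyte markers such as Ly6c2, Ccr2 and Vcan at a summed 12995 CPM in Ctrl and 10525 CPM in KD, against 2477 and 1572 CPM in granulocytes. The sub-cluster was also led by Chil3, Hp and Mmp8, and 3 granulocyte markers were raised in it. Prtn3 counted 132 UMIs in Ctrl monocytes (62.9 CPM) and 454 in KD monocytes (151 CPM), a log2 ratio of 1.26 (0.98 to 1.55). At 1000 UMIs per cell it was found in 5.47% of Ctrl and 10.7% of KD monocytes, and in 0.0688% and 0.264% of T cells.

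The other primary members were sparse in monocytes. Elane counted 7 UMIs in Ctrl and 49 in KD (log2 2.28, 1.13 to 3.67), Ctsg 5 and 45 (2.65, 1.32 to 4.34), and Mpo 0 and 32. The 4 primary genes together stood at 68.6 CPM in Ctrl and 192 CPM in KD, a log2 ratio of 1.49 (1.22 to 1.76). A few cells carried much of this: without the 3 monocytes richest in primary UMIs in each library the log2 ratio was 1.16. Without monocytes holding 5 or more UMIs of Elane, Mpo and Ctsg, a limit chosen after the values were seen, Prtn3 stood at a log2 ratio of 1.00 (0.71 to 1.29), Elane at 7 and 26 UMIs, and Ctsg at 5 and 8 UMIs (0.18, -1.61 to 2.14).

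Of the later granule genes, Mmp8 and Lcn2 were present in monocytes and the others were not measurably so. Mmp8 counted 120 UMIs in Ctrl (57.2 CPM) and 682 in KD (226 CPM), a log2 ratio of 1.98 (1.70 to 2.28), and Lcn2 counted 58 UMIs (27.6 CPM) and 817 (271 CPM), a log2 ratio of 3.29 (2.91 to 3.70). Ngp counted 3 UMIs in Ctrl and 9 in KD, Camp 5 and 8, Ltf 3 and 2, and Mmp9 1 and 12. In both libraries the CPM of Ngp, Camp and Ltf in monocytes lay between 0.663 and 2.99, against 1.06 and 3.55 CPM for Ngp and 1.10 and 1.91 CPM for Camp in T cells. Of the 5 members with at least 50 UMIs in monocytes (Elane, Prtn3, Ctsg, Lcn2 and Mmp8), 5 were at least 2-fold higher in KD and 0 lower, where 1.58% of 7209 genes were higher and 1.93% lower. For 3 of the 5 this rested on 3 KD monocytes: without those rich in Elane, Mpo and Ctsg, Elane and Ctsg had under 50 UMIs and Prtn3 was 1.99-fold higher. The summed granulocyte markers in monocytes were also higher in KD, as given above, and their part in these differences was not tested.

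The abundant primary transcripts lay in a small number of cells outside the granulocytes. Cells with at least 5 UMIs of Elane, Mpo and Ctsg together were 1 of the Ctrl cells and 20 of the KD cells, or 0.102 and 1.96 per 1000 cells. The 20 KD cells held 90.7% of the library's Elane UMIs, 85.6% of Mpo, 85.8% of Ctsg and 33.3% of Prtn3, and the 1 Ctrl cell held 22 of the 35 Elane UMIs. Of the 20, none was classed as a granulocyte, 10 lay in a cycling sub-cluster of the macrophage lineage led by Top2a, 3 were monocytes and 4 were in unnamed clusters. In 19 of the 20 the UMIs of monocyte markers exceeded those of macrophage markers, 10 carried Ms4a3, a gene of granulocyte and monocyte progenitors, and 15 were among the cells marked as likely doublets.

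The richest KD cell, with 28047 UMIs, held 272 Elane, 97 Mpo, 220 Prtn3 and 160 Ctsg UMIs, together with 128 Camp, 34 Ngp and 71 Ms4a3 UMIs, and was marked as a likely doublet. It alone held 51.8% of the Elane UMIs of KD. The Ctrl cell, with 26171 UMIs, held 22 Elane, 4 Mpo, 91 Prtn3, 25 Ctsg and 24 Ms4a3 UMIs and no Ngp, Camp or Ltf, and was not marked. A KD cell of 24838 UMIs, also not marked, held 1421 Camp, 579 Ngp and 48 Ltf UMIs beside 63 Prtn3, 7 Elane and 1 Mpo UMIs. In 18 of the 20 KD cells the UMIs of Ngp, Camp and Ltf summed to at most 1, so that cells rich in Elane, Mpo and Ctsg and cells rich in the strict secondary genes were mostly separate.

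**Figure D5:**
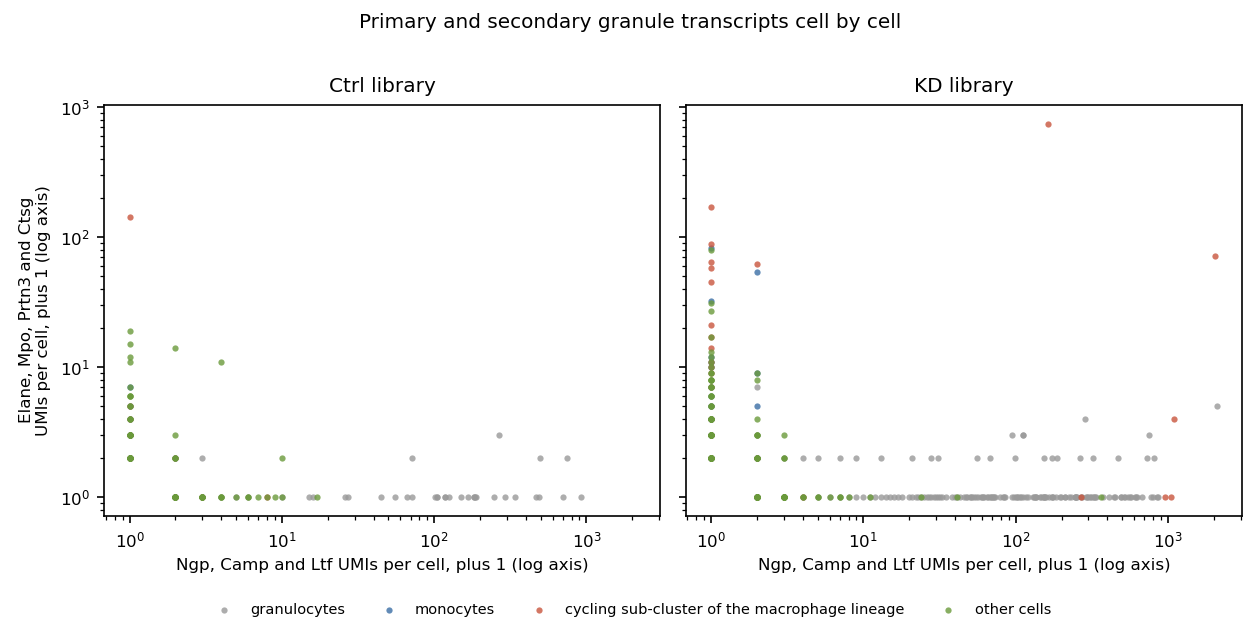
UMIs of the primary genes (vertical) against UMIs of Ngp, Camp and Ltf (horizontal) in single cells, each plus 1 on log axes, for Ctrl (left) and KD (right); points that share a place are drawn over each other. Cells with many primary UMIs lie along the left edge, granulocytes in grey along the bottom, and 2 KD cells of the cycling sub-cluster, with 749 and 71 primary UMIs, lie away from both.

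The same cycling sub-cluster held secondary transcripts in KD. Of the 2095 KD cells named macrophages, 6 had at least 10 UMIs of Ngp, Camp and Ltf, all 6 in the cycling sub-cluster and 2 of them marked as likely doublets. They held 5576 of the 5683 UMIs of these genes in KD macrophages (98.1%) and 1505 of the 1884 Lcn2 UMIs. Among the 2717 Ctrl macrophages no cell reached 10, the highest had 7, and the class held 72 UMIs. The level of these genes in KD macrophages was therefore that of 6 cells, and the limit of 10 was chosen after the values were seen. These cells were named by their sub-cluster, and they held 13453 UMIs of S100 granulocyte markers. Among them, the cell of 24838 UMIs held 42 UMIs of monocyte markers and 0 of macrophage markers. The cell of 28047 UMIs held 149 and 2. Prtn3 was spread more widely in macrophages: without the cells rich in Elane, Mpo and Ctsg it still counted 340 UMIs in Ctrl (16.6 CPM) and 771 in KD (42.5 CPM), a log2 ratio of 1.35 (1.17 to 1.54). Of these KD UMIs, 290 lay in a sub-cluster led by Ltc4s and Fn1 with 360 KD and 8 Ctrl cells. The ratio therefore also depends on which sub-clusters each library held.

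In T cells Ltf was the 1 member with a lower level in KD. It counted 328 UMIs in 154 of 2924 Ctrl T cells (5.27%, interval 4.49 to 6.14) and 20 UMIs in 16 of 1522 KD T cells (1.05%, 0.602 to 1.70), and its level was 13.3 CPM in Ctrl and 1.82 CPM in KD, a log2 ratio of -2.87 (-3.60 to -2.22). With the cells thinned, 0.928% of Ctrl T cells had an Ltf UMI. The UMIs are those assigned to Ltf in the deposited counts, and whether reads of an overlapping transcript are among them was not tested. Ngp and Camp did not accompany Ltf in Ctrl: T cells held 26 Ngp and 27 Camp UMIs, 149 of the 154 cells with Ltf had neither, and there were 6.19 Ltf UMIs per Ngp or Camp UMI in Ctrl T cells against 0.113 in Ctrl granulocytes. Up to 9 Ltf UMIs were counted in 1 T cell, and 43 Ctrl T cells had 3 or more. The cells lay in a sub-cluster led by Ccl5, Nkg7 and Cd8a (81 of 1645 cells) and in a cycling one (72 of 949 cells), whereas 1 of 330 cells in the sub-cluster led by Cd4 had an Ltf UMI. In Ctrl NK cells 4 of 435 and in Ctrl B cells 2 of 270 had one. Myeloid markers differed in direction between cells with and without Ltf. In Ctrl, S100a8 stood at 11.8 CPM in cells with Ltf and 19.8 CPM in the others of the Cd8a sub-cluster, and at 6.17 and 10.1 CPM in the cycling one. Lyz2 stood at 48.5 and 64.0 CPM in the former but at 304 and 95.5 CPM in the latter, and Csf3r at 2.94 and 2.63 CPM and at 2.06 and 2.66 CPM.

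Other granule genes, from lists made for these classes, were read beside the members in granulocytes. Of 18 further secondary and tertiary granule genes, all with at least 50 UMIs, 8 were at least 2-fold higher in KD and 0 lower, against the same 6.19% and 6.41% of all genes. The median log2 ratio of the 18 was 0.55, against 0.11 over all genes. These ratios pool all sub-clusters, of which the Stfa2 one, with Wfdc21 among its leading genes, held 5 Ctrl and 455 KD cells. The part of that makeup in the ratios was not tested. The 8 were Chil3, a chitinase-like lectin (log2 1.79, 1.61 to 1.98), Anxa1 (annexin A1, 1.52, 1.42 to 1.62), Cd177, a surface partner of proteinase 3 (1.36, 1.12 to 1.60), Lrg1 (1.23, 1.11 to 1.35), Arg1 (arginase 1, 1.18, 0.53 to 1.91), Hp (haptoglobin, 1.14, 1.04 to 1.23), Wfdc21 (1.12, 1.05 to 1.20) and Pglyrp1, a peptidoglycan-binding protein (1.06, 0.97 to 1.15). Olfm4, a glycoprotein of a subset of specific granules, stood at 51.7 CPM in Ctrl and 36.0 CPM in KD (-0.52, -0.85 to -0.19), and Lyz2, lysozyme, at 1340 and 1570 CPM (0.23, 0.17 to 0.29).

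The further primary genes moved less. Of 7, 5 had at least 50 UMIs and 1 was at least 2-fold higher, Serpinb1a, an inhibitor of the granule proteases that is also counted in the list of inhibitors (log2 1.26, 0.93 to 1.62). Srgn, the proteoglycan that holds granule proteins, stood at 10237 CPM in Ctrl and 8120 CPM in KD (-0.33, -0.36 to -0.31), and Ctsc, the protease that activates the primary granule proteases, at 193 and 179 CPM (-0.11, -0.27 to 0.06). Bpi, a primary granule protein, counted 0 UMIs in Ctrl and 1 in KD. Of the 8 inhibitors and binding partners 5 were measured and 1 was higher, the same Serpinb1a, and Slpi, an inhibitor of elastase, stood at 1860 and 2113 CPM (0.18, 0.13 to 0.24).

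Among 10 regulators of granule formation, 8 were measured, 1 was at least 2-fold higher in KD and 1 lower, against 6.19% and 6.41% of all genes. Cebpe, the factor needed for secondary granules, stood at 12.3 CPM in Ctrl and 26.5 CPM in KD (log2 1.11, 0.50 to 1.77), and within the immature cells at 94.7 and 121 CPM (0.36, -0.37 to 1.18). Irf8, which favours monocytes over granulocytes, stood at 67.0 and 30.4 CPM in granulocytes (-1.14, -1.45 to -0.83) and at 403 and 151 CPM in monocytes (-1.42, -1.58 to -1.25). Spi1, which encodes PU.1, stood at 503 and 731 CPM (0.54, 0.44 to 0.64) and Runx1 at 720 and 384 CPM (-0.91, -1.0 to -0.82).

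The lists used to order maturity differed between the libraries in part. Of the 8 early genes 6 were measured, 3 were at least 2-fold higher in KD (Chil3, Cebpe and Kit, the stem cell factor receptor, with 3 UMIs in Ctrl and 153 in KD and a log2 ratio of 3.71, 2.13 to 6.0) and 1 lower (Top2a, -1.33, -2.04 to -0.60), against 6.19% and 6.41% of all genes. Chil3 and Cebpe are counted in the lists above as well. Of the 153 Kit UMIs in KD, 143 lay outside the immature sub-cluster. Of the 6 late genes none reached a 2-fold difference in either direction (median log2 -0.01), and of 5 genes of secretory vesicles and receptors 4 were measured and none did, with Ptafr at -0.61 (-0.69 to -0.52) and Fpr1 at 0.46 (0.32 to 0.59).

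In monocytes, 4 of 15 measured further secondary and tertiary genes were at least 2-fold higher in KD and 0 lower: Wfdc21 (31.0 CPM in Ctrl and 348 CPM in KD, log2 3.49, 3.13 to 3.87), Arg1 (3.28, 2.10 to 4.77), Lrg1 (2.29, 1.87 to 2.75) and Chil3 (2.24, 2.15 to 2.32), against 1.58% and 1.93% of all genes in monocytes. Of the further primary genes 4 were measured and none reached 2-fold in either direction.

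The genes whose levels ran most like each class were read across 56 groups of cells (a class or sub-cluster in 1 library, at least 20 cells each), as Pearson's r of log2(CPM + 1). These groups share libraries and free RNA, so r is a description. The sum of the primary genes ran most like Ccl9 (r = 0.75), Dmkn (0.73), F10 (0.72), Vcan (0.71) and Chil3 (0.70). The sum of Ngp, Camp and Ltf ran most like Itgb2l (0.88), Cd177 (0.84), Ceacam10 (0.83), Tmem40 (0.80) and Dach1 (0.79). Mmp9 ran most like Chil1 (0.96), Cxcr2 (0.96), Mrgpra2b (0.95), Mirt2 (0.94) and Hdc (0.93), and none of these 15 genes appeared under more than 1 of the 3 classes.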

How the data were processed

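CD45+ cells of pooled liver metastases were sequenced as 1 Ctrl and 1 KD droplet library with 3′ counting (10x Genomics). Per the labels, the authors made the files with Cell Ranger 7.1.0 on GRCm39 and analysed them with Seurat 5.1.0 in R 4.4.1. The deposited UMI counts, for each gene in each barcode, are raw, and each UMI counts 1 captured molecule whatever the gene's length.

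The filter removed cells with under 200 or over 6000 genes, over 30000 UMIs or over 10% mitochondrial UMIs, and kept 19999 of 21359. The deposited libraries held 67207234 UMIs (Ctrl) and 64444715 UMIs (KD). Counts were clustered in Seurat 5.3.0 (R 4.3.3) with 2000 variable genes other than the members, 20 principal components and resolution 0.5, and granulocytes and the macrophage lineage were re-clustered. Clusters were named by at least 3 markers from fixed lists, so names may differ from those of the study. Doublets were left in, and likely ones were marked by Scrublet score (scanpy 1.11.5, 868 Ctrl and 958 KD cells) and removed as an alternative. Immature means a late to early ratio at least 4-fold below that of all granulocytes.

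UMIs were summed per class and library. No test was made, since each group was a single library. For log2 ratios, exact conditional binomial 95% intervals are given, for shares exact Clopper-Pearson intervals and for counts Poisson intervals, and a count of 0 was read as up to 3. PCR duplicates are removed by UMIs, but these intervals cover counting error only. The ratio method was tested on simulated data, drawn as Poisson counts from class sums, which is the model the intervals assume. Spread among cells or mice was not simulated, so whether the intervals hold under it was not tested. Genes with at least 50 UMIs entered the counts past a 2-fold difference.

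The text names the 10 members, the listed granule, regulator and inhibitor genes with at least 50 UMIs, the 5 genes most alike to each class, and markers. Genes that lead a sub-cluster, Ltf in T cells and single cells were chosen after their values were seen. The members and lists were chosen with earlier results of these data known. Alternatives were a stricter filter (cells under 500 genes or over 5% mitochondrial UMIs removed), removal of likely doublets, resolution 1.0, members kept among the variable genes, classes from single cells, thinning to 1000 UMIs, TMM scaling (edgeR 4.0.16) and, after seeing the data, leaving out sub-clusters, single cells or the early genes Chil3 and Fcnb. No Mmp9 promoter was used here, since the reference table used holds no entry for it.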

Additional observations from a re-analysis of the deposited data

Results flagged for a closer look

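Cells above the upper limits of the filter, 58 in Ctrl and 45 in KD, entered no comparison, but held much of the Ctsg signal. They carried 38 of the 69 deposited Ctsg UMIs in Ctrl (55.1%) and 209 of 585 in KD (35.7%), above the 3 counts that a count of 0 allows. In each library 1 cell held all of these. The Ctrl cell, with 49028 UMIs over 7296 genes, carried 80 Prtn3, 38 Ctsg, 3 Elane, 2 Mpo, 50 Ms4a3 and 12 Mki67 UMIs. The KD cell, with 34051 UMIs over 6084 genes, carried 209 Ctsg, 172 Prtn3, 108 Elane, 64 Mpo, 24 Ms4a3 and 5 Mki67 UMIs. Neither held a UMI of Ngp, Camp, Ltf, Mmp8 or Mmp9. With them, cells with at least 5 UMIs of Elane, Mpo and Ctsg were 2 in Ctrl and 22 in KD among the deposited cells, a count that includes 1 further KD cell left out for few genes or much mitochondrial RNA.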

How the results depend on the processing

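No paired analysis was possible because each group had 1 library. Of 46 comparisons of the summary values with an alternative, 29 were read as the same, 17 as moved and 0 as reversed. Values with a counting interval were the same if they stayed within it. The order of the granule classes has no interval, and its 5 comparisons were the same because the number of members was unchanged. Mmp9 in granulocytes stayed within its interval in all 8 (log2 0.07 to 0.22), but after thinning its own interval of -0.08 to 0.23 included 0. Leaving out the immature sub-cluster was not among these 8 and gave 0.01, outside the interval. The 7 members highest in the least mature cells were 7 in all 5 alternatives run. With the members kept among the variable genes, the first sub-cluster itself carried markers of another lineage. The primary genes in granulocytes were 1.23 without likely doublets and 3.19 with classes made without clusters, against 0.48. Ngp, Camp and Ltf were 0.39 and 0.45 in the same settings, 0.29 at resolution 1.0, 0.36 with the members kept among the variable genes, 0.29 after thinning and 0.16 without sub-clusters with markers of other lineages, against 0.22. The primary genes in monocytes were 1.18 with the stricter filter, 1.99 at resolution 1.0, 1.11 with the members kept, 1.21 after thinning, 1.16 without the 3 richest monocytes per library and 1.02 without cells of 5 or more Elane, Mpo and Ctsg UMIs, against 1.49. The difference in immature share was 10.4 percentage points with the stricter filter and 1.50 with classes made without clusters, against 3.86. The difference in the share of granulocytes with Lcn2 was 33.3 percentage points after thinning to 500 UMIs, against 39.9. Settings that classed the cells anew also changed which cells a class held, and the causes of these moves were not tested. With at least 10 UMIs, 10.6% of genes were at least 2-fold higher and 9.35% lower, and with at least 200 UMIs 4.67% and 5.97%. TMM scaling moved log2 ratios by 0.02 in granulocytes and 0.01 in monocytes. Of the 15 genes most alike to the classes, 11 remained at a minimum of 1000 UMIs. Mouse-to-mouse spread is not seen in pooled libraries.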

Other observations

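Prtn3 varied among the sub-clusters of the macrophage lineage, which the comparisons above pool. Among the 6 sub-clusters with at least 20 cells of each library, it was lowest in the one led by Mmp12 and Ccl8, at 9.29 CPM in Ctrl (719 cells) and 16.0 CPM in KD (1011 cells). It stood at 18.6 and 45.1 CPM in the sub-cluster led by Upp1 and Ly6i, and at 28.0 and 50.4 CPM in the sub-cluster led by Il1a and Cxcl1. In the sub-cluster led by Ltc4s and Fn1, 8 Ctrl cells held 56 UMIs, up to 18 in 1 cell (953 CPM, 62.5% of cells), and 360 KD cells held 290 UMIs (96.0 CPM, 35.6% of cells), so that the level was higher in Ctrl there, over few cells. In a sub-cluster led by Pf4, Ltc4s and Ccl6, 51 KD cells held 53 UMIs (268 CPM, 58.8% of cells) and the 1 Ctrl cell none. These sub-clusters were named after their values were seen, and no test was made.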
